A study of Mus musculus with 6 samples.

Results

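Trdc, Trgv2, Tcrg-C1, Tcrg-C2 and Tcrg-C4 encode parts of the gamma delta T cell receptor, and their transcripts were measured in single mouse splenocytes by CITE-seq, a method that counts RNA and DNA-tagged antibodies in the same cell. The genes were taken by symbol, 5 of the 31053 genes in the deposited matrix. The mice were C57BL/6 males in 3 groups: 3 months of age given saline, 20 months of age given saline, and 20 months of age given recombinant mouse platelet factor 4 (PF4) at 5 μg per ml, each in 8 tail vein injections of 100 μl over 24 days. Splenocytes of 5 mice were pooled in each group before labelling, so that no group has a replicate. The matrix separates 3 libraries by barcode suffix, but neither labels, headers nor methods say which suffix is which group. The libraries are therefore called 1, 2 and 3, age and PF4 were not compared, and no p-value was computed. Intervals are exact 95% intervals (Poisson for levels, Clopper-Pearson for shares of cells) that cover counting error only.

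A T cell receptor pairs either an alpha with a beta chain or a gamma with a delta chain, and each chain joins a variable (V) segment to a constant (C) region by gene rearrangement. Trdc encodes the constant region of the delta chain, Tcrg-C1, Tcrg-C2 and Tcrg-C4 encode constant regions of the gamma chain, and Trgv2 is a gamma V segment. Gamma delta T cells are a minority of splenic T cells, mostly carry neither CD4 nor CD8 and include subsets that make interleukin 17 or interferon gamma. The genes of Trac, the alpha constant region, and Trdc lie in one locus, and rearrangement of the alpha chain removes Trdc from that chromosome, while gamma chain genes can stay rearranged in alpha beta T cells.

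The gamma constant genes resemble each other, which bears on how their reads can be told apart. On the GRCm38 build, Tcrg-C1 (ENSMUSG00000076749) lies at chr13:19214103-19217024 on the plus strand, Tcrg-C2 (ENSMUSG00000076752) at chr13:19304649-19307551 on the minus strand and Tcrg-C4 (ENSMUSG00000076757) at chr13:19344558-19352756 on the plus strand. Trgv2 (ENSMUSG00000076754), with 2 exons, lies between the last 2 of these at chr13:19336573-19337167 on the minus strand. The first 240 bases of the first coding exon, in the GENCODE transcripts of that build, are shown for the 3 constant genes, with bases that differ from Tcrg-C1 in capitals.
Tcrg-C1: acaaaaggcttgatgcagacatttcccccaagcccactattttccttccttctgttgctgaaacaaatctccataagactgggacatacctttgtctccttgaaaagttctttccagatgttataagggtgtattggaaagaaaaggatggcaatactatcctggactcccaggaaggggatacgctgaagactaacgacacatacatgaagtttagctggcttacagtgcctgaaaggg
Tcrg-C2: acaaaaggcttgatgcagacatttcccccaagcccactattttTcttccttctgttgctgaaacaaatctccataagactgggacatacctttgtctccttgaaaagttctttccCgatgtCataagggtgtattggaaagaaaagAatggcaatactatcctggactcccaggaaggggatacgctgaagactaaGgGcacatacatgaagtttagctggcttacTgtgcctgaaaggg
Tcrg-C4: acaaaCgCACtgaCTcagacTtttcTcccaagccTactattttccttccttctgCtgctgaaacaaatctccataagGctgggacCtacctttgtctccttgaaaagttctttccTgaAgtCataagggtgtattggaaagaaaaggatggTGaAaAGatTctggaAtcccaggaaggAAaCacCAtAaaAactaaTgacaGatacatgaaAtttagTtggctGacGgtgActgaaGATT
The stretches lie at chr13:19214103-19214342, chr13:19307312-19307551 and chr13:19344558-19344797. Tcrg-C2 differed from Tcrg-C1 at 7 of these bases and at 9 over the whole exon of 330 bases (97.3% identity). Tcrg-C4 differed at 40 of them and at 59 over the exon (82.1% identity). In the last 500 bases of the transcripts, where a 3′ method draws its reads, 15 of the 411 stretches of 90 bases of Tcrg-C1 (3.65%) occurred unchanged in Tcrg-C2 and none in Tcrg-C4. The division of counts between Tcrg-C1 and Tcrg-C2 is therefore uncertain for reads within these shared stretches. How reads that differ at a base or more were assigned was not tested. Trdc (ENSMUSG00000104876), with 4 exons, lies at chr14:54142851-54148868 on the plus strand, and its end overlaps the V segment Trdv5 on the minus strand, whose reads could not be told apart from it if strand was not used in counting.

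The 29005 barcodes were reduced to 20161 (69.5%) with 300 to 5000 detected genes and at most 10% mitochondrial UMIs (unique molecular identifiers, 1 for each molecule captured). The kept cells numbered 4199, 7511 and 8451 in libraries 1, 2 and 3, with 20032690, 32270524 and 35697547 RNA UMIs, and 43 barcode sequences occurred in more than 1 library among them. The antibody panel holds no CD3 or gamma delta receptor antibody, so candidate T cells were those negative for the B cell antibodies used, split by the CD4 and CD8a antibodies. The CD4 gate held 2344 cells and the CD8a gate 2285. Of the 2385 double-negative cells, 352 had at least 2 UMIs of Cd3d, Cd3e or Cd3g, which encode the CD3 chains that every T cell receptor needs (CD3+ double-negative cells). A further 306 had no CD3 UMI and UMIs of at least 2 natural killer (NK) markers (NK cells), and 1727 were neither. The 9835 cells positive for all of these B cell antibodies served as cells that should lack the genes. None of the 5 genes took part in a gate.

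The CD3+ double-negative gate was checked against its markers, and it also held RNA of other cell types. Its T cell marker list (Cd3d, Cd3e, Cd3g, Cd247, Lck, Cd5) summed to 2662, 2745 and 2747 CPM in the 3 libraries, where CPM are UMIs per 1000000 RNA UMIs of the gate. The CD8 T cell list (Cd8a, Cd8b1) summed to 134, 266 and 85.4 CPM, against 1490, 1401 and 1637 CPM in the CD8a gate. The CD4 T cell list (Cd4, Zbtb7b) summed to 45.4, 27.2 and 59.1 CPM. For the B cell list the sums were 146, 266 and 276 CPM. All 10 NK markers were present, at 752 to 942 CPM in sum. The 4 neutrophil markers summed to 32274, 33.5 and 2174 CPM, with S100a8 alone at 15277, 10.5 and 1120 CPM, the erythroid list to 2619, 52.3 and 122 CPM and the monocyte or macrophage list to 1595, 31.4 and 1367 CPM. Library 1 thus carried the most myeloid and erythroid RNA in this gate, and it also had the lowest Trdc level there. Leaving out the 7, 0 and 4 cells with at least 5 UMIs of S100a8 and S100a9, an alternative chosen after the data were seen, gave Trdc levels of 98.0, 178 and 335 CPM in place of 83.3, 178 and 339 CPM.

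All 5 genes had their highest level in CD3+ double-negative cells in every library. Levels are UMIs summed over the cells of a gate and divided by all RNA UMIs of those cells, as CPM. They are not scaled to transcript length, so that a gene is compared here across cells and not with another gene, and a sum alone cannot tell fewer positive cells from less RNA per cell. Trdc, the only delta constant gene, stood at 83.3, 178 and 339 CPM in libraries 1, 2 and 3, from 8 of 77, 16 of 108 and 53 of 167 cells with a UMI. Its lowest and highest libraries had intervals that did not overlap. Trgv2 was at 98.4, 130 and 201 CPM, from 18, 25 and 54 cells, and again the lowest and highest libraries were apart. Tcrg-C1 was at 73.2, 48.1 and 71.6 CPM, Tcrg-C2 at 70.6, 69.1 and 118 CPM and Tcrg-C4 at 68.1, 64.9 and 103 CPM, and for these 3 genes the intervals of the lowest and highest libraries overlapped. The gamma constant genes had 109 to 155 UMIs in this gate, against 388 for Trdc and 261 for Trgv2. Overlap of their intervals therefore does not show that they differed less between libraries. The share of CD3+ double-negative cells with a Trdc UMI after thinning every cell to 1000 UMIs was 14.4% (48 of 334 cells), against 0.486% in the CD8a gate and 0.197% (18 of 9135) in B cells, whose median depths were 4550.5, 6164 and 3254 UMIs before thinning. Gates drawn from RNA in place of antibodies gave a pooled Trdc level of 74.6 CPM in these cells instead of 232 CPM.

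**Figure D1:**
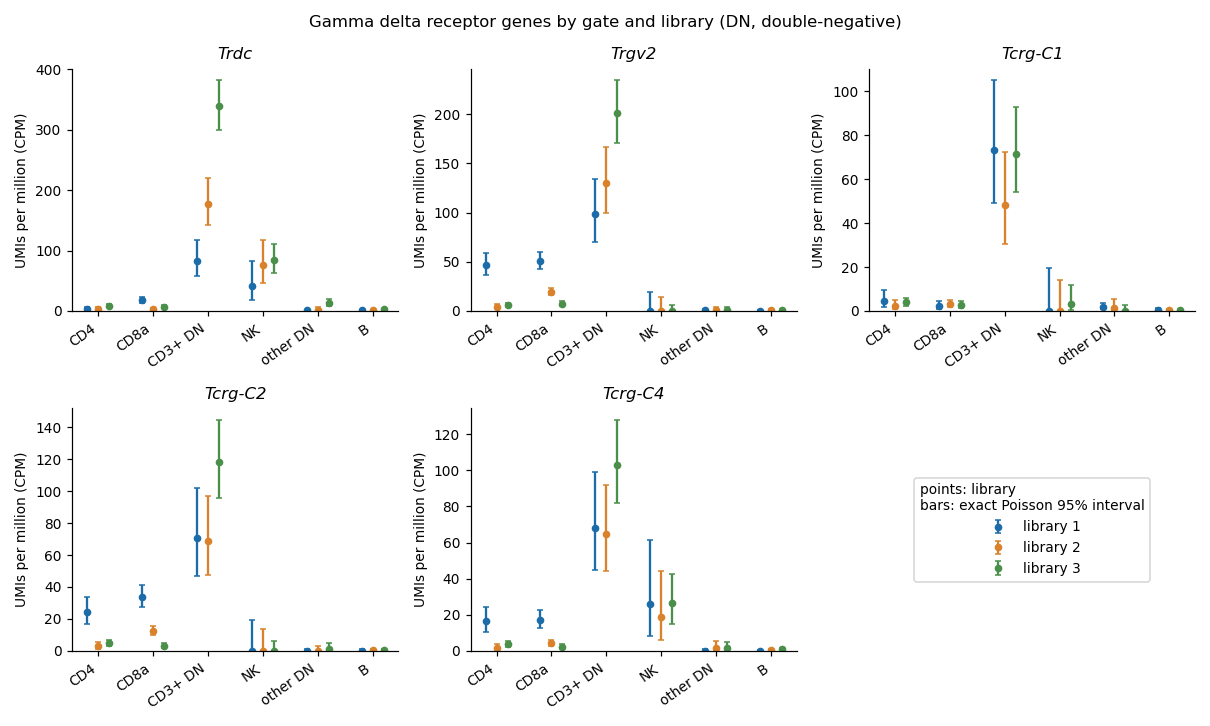
Levels of the 5 genes in CPM (linear axes, each gene on its own scale) in each gate (DN, double-negative), with 1 point per library and bars for exact Poisson 95% intervals. CD3+ double-negative cells were highest for each gene in every library, and only Trdc and Tcrg-C4 had UMIs in the NK cells of all libraries.

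In the CD4 and CD8a gates the genes were low, and library 1 stood above the others for Trgv2, Tcrg-C2 and Tcrg-C4. Trgv2 in CD8a cells was at 50.9 CPM in library 1, 19.7 CPM in library 2 and 7.34 CPM in library 3. Tcrg-C2 followed at 34.0, 12.4 and 2.78 CPM and Tcrg-C4 at 17.3, 4.33 and 1.98 CPM. All 3 genes had their highest level in library 1 and their lowest in library 3, with intervals of these 2 libraries that did not overlap. Among CD4 cells, Trgv2 was at 46.6, 4.02 and 5.83 CPM, Tcrg-C2 at 24.3, 3.02 and 4.71 CPM and Tcrg-C4 at 16.4, 1.68 and 3.58 CPM. Library 1 was again apart from the lowest library for each of the 3. Tcrg-C1 stayed between 2.12 and 4.60 CPM in both gates, and its libraries overlapped. Trdc was at 18.03, 3.58 and 7.14 CPM in CD8a cells and at 2.63, 3.69 and 9.03 CPM in CD4 cells. Library 1 was thus highest for Trdc in CD8a cells too, with an interval (13.4 to 23.7) apart from those of libraries 2 and 3. In CD4 cells library 3 was highest for Trdc. In B cells the pooled levels were 2.07 CPM for Trdc, 0.88 CPM for Trgv2, 0.40 CPM for Tcrg-C1 and 0.54 CPM for both Tcrg-C2 and Tcrg-C4. Trdc in CD4 cells, at 6.42 CPM pooled (4.93 to 8.21), was above its level in B cells (1.62 to 2.60), and in library 3 alone it was 9.03 against 2.96 CPM with separate intervals. Trgv2 and Tcrg-C2 in the CD8a cells of library 1 were likewise above their levels in B cells.

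NK cells carried Trdc and Tcrg-C4 transcripts and nearly none of the other genes. Trdc was at 42.0, 75.8 and 84.0 CPM in NK cells, the second highest gate for Trdc in every library. Tcrg-C4 was at 26.2, 18.95 and 26.4 CPM. The libraries overlapped for both genes. By contrast, Trgv2 had no UMI in any of the 306 NK cells, which by a limit of 3 counts allows up to 0.98% of cells with a UMI and does not bound the cells that express it, Tcrg-C2 had none either, and Tcrg-C1 had UMIs in library 3 only (3.29 CPM). A Trdc UMI was found in 59 NK cells and a Tcrg-C4 UMI in 14, and no cell had both. Of the 59, 43 had a single Trdc UMI and none had more than 3, whereas the 77 Trdc+ cells of the CD3+ double-negative gate had a median of 4 and up to 17. After thinning to 1000 UMIs, 5.50% of NK cells (16 of 291) kept a Trdc UMI. NK cells with and without a Trdc UMI both expressed the NK genes, with Ncr1, an activating NK receptor, at 975 and 944 CPM and the granzyme Gzma at 7427 and 8425 CPM. By pooled level, the Ly49 receptor genes Klra8 (1025 and 791 CPM) and Klra4 (889 and 679.5 CPM) were higher in the cells with Trdc and Klra9 (293 and 422 CPM) lower. Their pooled intervals, like those of Gzma, were apart but do not cover spread between cells, and 1 cell held 20 Klra8 UMIs. The shares of cells with a UMI had overlapping intervals. They were 69.5% and 60.7% for Klra8, 64.4% and 51.0% for Klra4, and 47.5% and 42.9% for Klra9, the reverse of its level. Trbc1, a beta constant gene, was detected in 67.8% of NK cells with a Trdc UMI and in 60.7% of those without, and Trac in 5 of 59 and 4 of 247. By level Trbc1 went the other way, at 285 against 334 CPM with overlapping intervals. NK cells with a Trdc UMI were deeper, at a median of 3886 against 3275 UMIs, which these shares do not account for.

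Cells outside these gates held part of the transcripts. Trdc in the double-negative cells that were neither CD3+ nor NK was at 0.84, 2.31 and 13.2 CPM, the last of these apart from the first. The 3312 ungated kept cells held 214 Trdc UMIs in 65 cells, 22.4% of the Trdc UMIs of kept cells, and 179 of these UMIs lay in 35 cells with at least 2 CD3 UMIs. Trgv2 was detected in 68 ungated cells, 64 of them with at least 2 CD3 UMIs. Over all kept cells the counts were 954 UMIs in 355 cells for Trdc, 861 in 370 for Trgv2, 532 in 286 for Tcrg-C2, 406 in 236 for Tcrg-C4 and 263 in 149 for Tcrg-C1. The NK gate could hold T cells whose CD3 transcripts were missed, and 0.394% of CD8a cells and 1.62% of CD4 cells had no CD3 UMI.

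All 5 genes were called higher in CD3+ double-negative cells than in CD4 cells at a ratio of 2, and 3 of them (Trdc, Tcrg-C1 and Tcrg-C4) at a ratio of 3. A gene was called where the counting intervals of both gates were apart and the ratio was at least 2, in the same direction in every library. Of 8458 genes tested, 86 (1.02%) were called higher and 49 (0.579%) lower. The pooled ratio was 36.2 for Trdc, 18.3 for Tcrg-C1, 16.8 for Tcrg-C4, 13.46 for Trgv2 and 12.8 for Tcrg-C2, and the smallest ratio of any library was 31.7 for Trdc and 2.11 for Trgv2. The median log2 ratio of the 5 genes was 4.07, against 0.01 over all genes tested. In CD4 cells only Trgv2 reached 10 CPM (11.6 CPM pooled). The other members were tested through their level in the double-negative cells, so that the calls and the median are descriptions. Trdc kept a ratio above 30 in each library, while those of Trgv2 and Tcrg-C2 were small in library 1, where CD4 cells held the most of both.

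Against CD8a cells, 4 of the 5 genes were called higher in CD3+ double-negative cells, beside 82 of 8275 genes tested (0.991%) higher and 10 (0.121%) lower. The pooled ratio was 30.5 for Trdc, 23.8 for Tcrg-C1, 13.9 for Tcrg-C4 and 7.01 for Tcrg-C2. These ratios were not alike in the libraries. Trdc stood at 83.3 against 18.03 CPM in library 1, 178 against 3.58 CPM in library 2 and 339 against 7.14 CPM in library 3. In library 1 Tcrg-C4 was at 68.1 against 17.3 CPM, Tcrg-C2 at 70.6 against 33.95 CPM and Tcrg-C1 at 73.2 against 2.12 CPM. Trgv2 had a pooled ratio of 7.28 and missed the call, since its ratio in library 1 was 1.93. It passed the call where cells with at least 2 B cell UMIs, or with at least 5 UMIs of S100a8 and S100a9, were left out. At a ratio of 3 Tcrg-C2 missed the call as well. The median log2 ratio of the 5 genes was 3.79, against 0.20 over all genes tested. Trdc, Tcrg-C1 and Tcrg-C4 were again tested through their level in the double-negative cells, so that these values are descriptions. Between CD8a and CD4 cells, where 68 of 8108 genes (0.839%) were called higher and 168 (2.07%) lower in CD8a cells, only Trgv2 and Tcrg-C2 reached 10 CPM and neither was called. Between NK and CD8a cells, 317 of 8392 genes (3.78%) were called higher and 96 (1.14%) lower in NK cells, and none of the 4 genes tested was called. Trdc had a pooled NK to CD8a ratio of 9.77 and overlapping intervals in library 1. Trac and the beta constant gene Trbc2 were called lower in NK cells, at 8.48 against 399 CPM and 243 against 1056 CPM.

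Part of the listed genes that accompany gamma delta and innate-like T cells were also higher in the CD3+ double-negative gate than in CD4 or CD8a cells. A gene could be tested by reaching 10 CPM in the double-negative cells alone, so that the counts are descriptions. Over all genes tested, 1.02% were called higher than in CD4 cells and 0.991% higher than in CD8a cells. Of the 23 gamma delta regulators and interleukin 17 type genes, 13 were tested, and 7 of these were called higher than in CD4 cells and none lower. Among them were Zbtb16, which encodes the innate T cell factor PLZF, at 22.2 against 3.56 CPM, Id2 at 533 against 156 CPM and the chemokine receptor gene Ccr2 at 156 against 31.8 CPM. Of the 22 interferon type and innate genes, all tested, 11 were called higher and none lower, with the NK receptor gene Klrk1 at 328 against 14.97 CPM, Cd160 at 163 against 17.8 CPM and the T-box factor Tbx21 at 53.3 against 7.74 CPM. Of the 6 lineage genes, Cd8a and Cd8b1 were called higher (Cd8b1 at 110 against 19.1 CPM) and Cd4 and the regulatory T cell factor Foxp3 lower (2.99 against 46.8 CPM). Against CD8a cells the counts for the first 2 lists were 6 of 13 and 6 of 21 higher and none lower. Maf, an interleukin 17 program factor, was at 120 against 12.2 CPM there and Ikzf2, which encodes Helios, at 275 against 32.9 CPM. Fcer1g, Tyrobp and Gzma, which NK cells and, for the first pair, myeloid cells also express, were called in both comparisons. The NK and myeloid markers in the gate move with these lists, and their part in them was not tested.

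Trac co-detection set Trdc apart from the gamma genes. In CD3+ double-negative cells, Trac was detected in 16 of 77 Trdc+ cells (20.8%, interval 12.4 to 31.5%) and in 194 of 275 Trdc- cells (70.5%, 64.8 to 75.9%). The library values were 1 of 8, 3 of 16 and 12 of 53 Trdc+ cells, against 46 of 69, 65 of 92 and 83 of 114 Trdc- cells. Trac was thus the rarer in Trdc+ cells of each library. Trac accompanied Trgv2 in 54 of 97 cells (55.7%, against 61.2% without Trgv2), Tcrg-C2 in 44 of 81 (54.3% against 61.3%), Tcrg-C1 in 27 of 53 (50.9% against 61.2%) and Tcrg-C4 in 31 of 67 (46.3% against 62.8%). After thinning to 1000 UMIs, Trac was found in 1 of 48 Trdc+ cells (2.08%) and 85 of 286 Trdc- cells (29.7%). The order turned for Trgv2 (28.9% against 25.3%), Tcrg-C2 (30.6% against 25.2%) and Tcrg-C1 (26.1% against 25.7%). It held for Tcrg-C4 (14.3% against 26.5%). The thinned shares of these 4 genes rest on 21 to 38 cells with the gene.

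Within the CD8a gate, Trac was detected in 119 of 139 Trgv2+ cells (85.6%, against 84.0% without), in 91 of 104 Tcrg-C2+ cells (87.5% against 83.9%) and in 51 of 61 Tcrg-C4+ cells (83.6% against 84.1%). The share was 71.4% for Tcrg-C1 (20 of 28, interval 51.3 to 86.8%, against 84.2%). The 61 Trdc+ cells of that gate had Trac in 50 (82.0%, against 84.1%). In CD4 cells the counts were 34 of 41 for Trgv2, 28 of 31 for Trdc and 22 of 33 for Tcrg-C4 (66.7% against 82.4%). After thinning, Trac was found in 1 of 11 Trdc+ CD8a cells (9.09%, interval 0.23 to 41.3%) against 34.2% of the others, and in 5 of 10 Trdc+ CD4 cells against 45.0%. A gap of the size seen in double-negative cells was absent from the unthinned CD4 and CD8a shares, and the thinned counts are too few to show one.

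**Figure D2:**
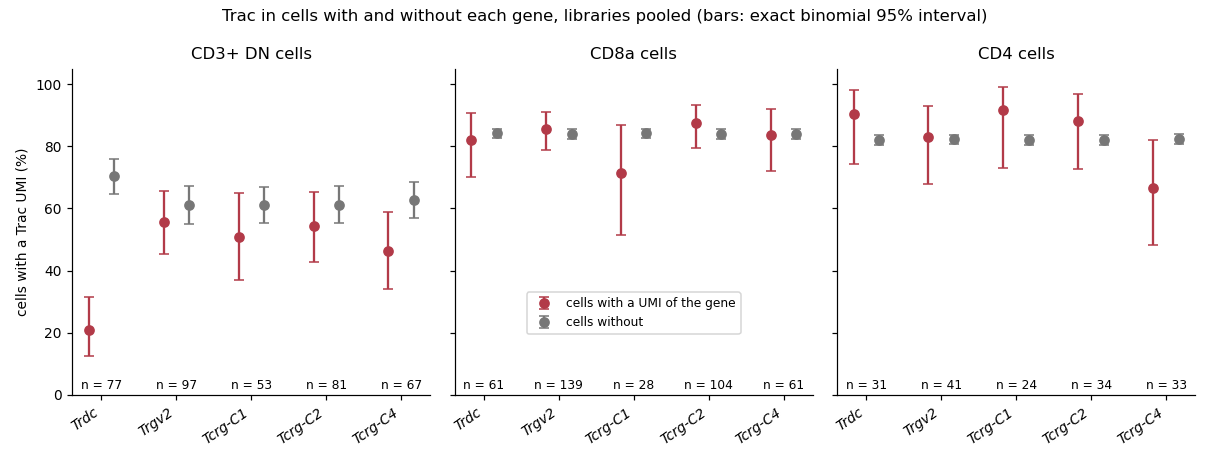
Percent of cells with a Trac UMI among cells with and without a UMI of each of the 5 genes, per gate, libraries pooled, with exact binomial 95% intervals. The largest gap is for Trdc in CD3+ double-negative cells, at 20.8% against 70.5%.

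The members also differed in which of them shared a cell. In CD3+ double-negative cells Trdc and Trgv2 were found together in 47 cells, Trdc and Tcrg-C4 in 40, and Trgv2 and Tcrg-C2 in 64. Independence of the 2 genes of a pair gives 21.2, 14.7 and 22.3 cells. In the CD8a gate Trgv2 and Tcrg-C2 shared 77 cells where independence of the 2 genes gives 6.3, Trgv2 and Tcrg-C4 shared 40 and Tcrg-C2 and Tcrg-C4 shared 35. By library the Trgv2 and Tcrg-C2 pair was found in 35, 35 and 7 CD8a cells, against 6.25, 2.8 and 0.22 under independence. The 61 Trdc+ CD8a cells shared 8 with Trgv2 (3.71 under independence), 3 with Tcrg-C1 (0.747), 3 with Tcrg-C2 (2.78) and 1 with Tcrg-C4 (1.63). Trgv2 and Tcrg-C2 were likewise paired in 25 CD4 cells (0.595 under independence) and Trgv2 and Tcrg-C4 in 17 (0.577). No CD4 cell had both Trdc and Tcrg-C4, where independence gives only 0.436.

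**Figure D3:**
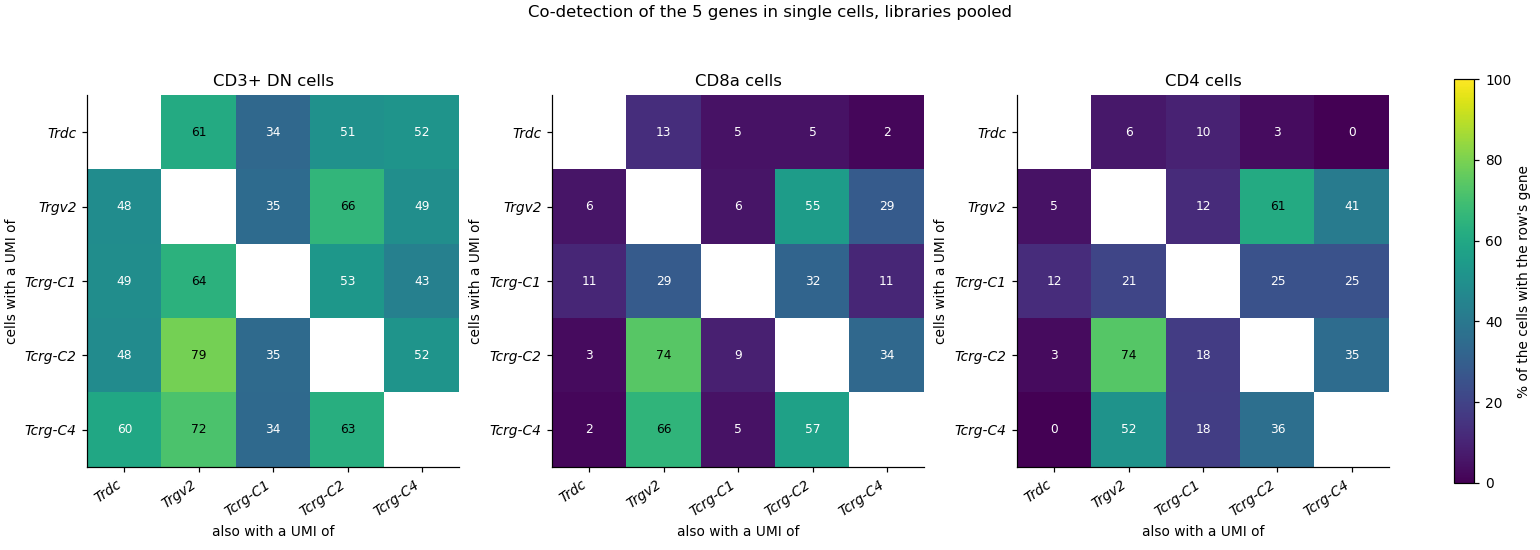
Percent of the cells with a UMI of the gene in each row that also had a UMI of the gene in each column, per gate with the libraries pooled, shown as colour (0 to 100%) and number. In CD8a cells 55.4% of Trgv2+ cells held Tcrg-C2 and 13.1% of Trdc+ cells held Trgv2, while in CD3+ double-negative cells 61.0% of Trdc+ cells held Trgv2.

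To describe the cells in which the delta gene was found without the alpha gene, 61 CD3+ double-negative cells with Trdc and no Trac UMI (7, 13 and 41 per library, 0.167%, 0.173% and 0.485% of kept cells) were set against 194 with Trac and no Trdc (46, 65 and 83). A UMI of Tcrg-C1, Tcrg-C2 or Tcrg-C4 was present in 48 of the 61 (78.7%; 6 of 7, 11 of 13 and 31 of 41) and in 57 of the 194 (29.4%). Tcrg-C4 stood at 600, 282 and 238 CPM in the Trdc+ Trac- cells against 27.9, 30.1 and 46.7 CPM in the Trac+ Trdc- cells, and Tcrg-C1 at 480, 199 and 172 CPM against 60.4, 36.7 and 42.1 CPM. Both were called higher, beside 4 of 8713 genes tested (0.0459%) higher and 0 (0%) lower. Library 1 sums only 7 cells, which limits how many genes can be called. Tcrg-C2 at 280, 232 and 294 CPM against 78.9, 60.1 and 72.5 CPM, and Trgv2 at 320, 415 and 404 CPM against 125, 107 and 168 CPM, were higher in each library and not called. The other pair called was Cd7, a surface protein of T and NK cells, at 1279, 929 and 759 CPM against 195, 210 and 147 CPM, and the integrin gene Itga4 at 840, 631 and 919 CPM against 320, 297 and 402 CPM. The beta constant genes were present in both sets and not called, with pooled levels of 466 against 586 CPM for Trbc1 and 899 against 1222 CPM for Trbc2.

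**Figure D4:**
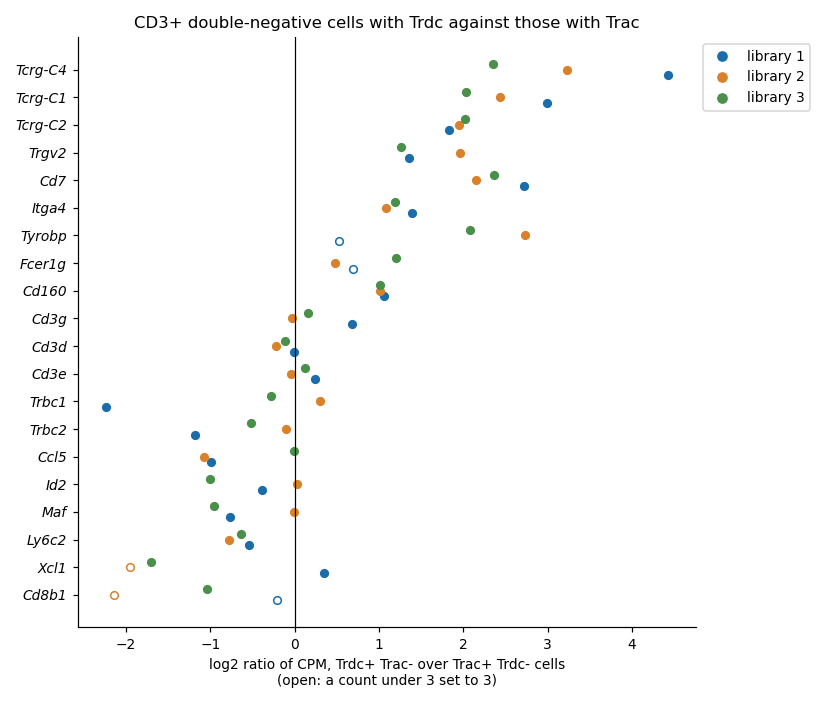
Log2 ratio of CPM between Trdc+ Trac- and Trac+ Trdc- CD3+ double-negative cells for 4 of the 5 genes and 16 others, partly picked after their values were seen, with 1 point per library and open points where a count under 3 was set to 3. Tcrg-C4 lies farthest to the right, at 600 against 27.9 CPM in library 1, and the CD3 genes lie near 0.

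The TCR beta chain protein was low where Trdc was found without Trac. The median TCR beta chain antibody count was 17, 23 and 29 in the Trdc+ Trac- cells and 39.5, 44 and 51 in the Trac+ Trdc- cells. B cells, which have no T cell receptor, had medians of 29, 32 and 32, above those of the Trdc+ Trac- cells in every library. Medians in the CD8a gate were 66, 70 and 88. Genes of the interleukin 17 list were found in a few of the Trdc+ Trac- cells, and none of the 17 tested was called. Cd163l1 (SCART1), a marker of interleukin 17 type gamma delta T cells, had 19 UMIs in 6 of the 61 cells and none in the 194. Tmem176a had 21, 18 and 1 UMIs in 3, 4 and 1 cells of the libraries. Of the 21 tested genes of the interferon type list none was called, and Gzma had 120 UMIs in 4 cells, all of them in library 3. The CD27 antibody, whose target is low on interleukin 17 type gamma delta cells, had medians of 19, 33 and 54. For CD27, Tmem176a and Gzma no values of other cells are given here, so these values assign the cells to no type.

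Cells with both Trac and gamma transcripts were described next within the CD8a gate, a comparison added after the data were seen. Of the Trac+ CD8a cells, 157 (71, 67 and 19 per library) had a UMI of Trgv2, Tcrg-C2 or Tcrg-C4, and 1764 (329, 737 and 698) had none. Trdc was at 13.2, 41.5 and 0 CPM in the first and 17.6, 1.49 and 4.68 CPM in the second, so that the libraries did not share a direction. Tcrg-C1 was at 7.90, 12.97 and 21.7 CPM against 1.43, 1.49 and 0.70 CPM and was not called. Of 7856 genes tested, 5 (0.0636%) were called higher in the cells with a gamma transcript and 6 (0.0764%) lower. Ikzf2, on the fixed list of innate T cell genes, was higher at 111, 163 and 282 CPM against 15.3, 21.4 and 33.9 CPM. The others called, named after their values were seen, were Gem, Klra7, Ifngas1 and Osbpl3 higher and Dapl1, Il6ra, Ccr9, Pdk1, Auts2 and Itgae lower. The CD8a antibody median was 182, 189 and 215 in these cells against 268, 285 and 342, and that of CD38 was 49, 32 and 22 against 18, 15 and 13. TCR beta chain antibody medians were 62, 58 and 74 against 67, 71 and 89, well above the 29 to 32 of B cells.

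Trgv2 and Tcrg-C2 did not keep one direction between CD44 high and CD44 low CD8a cells, whereas Tcrg-C1 and Trdc were higher in CD44 high cells of every library. CD44 marks antigen-experienced and innate-like T cells, and its antibody counts separated poorly in library 1. Trgv2 was at 82.2 CPM in CD44 low and 26.9 CPM in CD44 high cells of library 1, at 18.99 and 19.97 CPM in library 2 and at 3.11 and 17.3 CPM in library 3. Tcrg-C2 gave 49.7 and 21.9, 13.3 and 12.0, and 0.565 and 7.99 CPM in the same order. Library 1 was thus higher in CD44 low cells and library 3 in CD44 high cells for both genes. Tcrg-C1 was at 3.13 against 0.81, 3.99 against 1.03 and 7.99 against 0.28 CPM in CD44 high and low cells, with intervals that were apart in library 3 and overlapped in the others. Tcrg-C4 was at 6.25 against 31.7, 3.57 against 6.16 and 3.33 against 1.41 CPM. Trdc in CD44 high cells was at 22.5 against 12.2, 4.42 against 1.54 and 12.0 against 5.09 CPM, with intervals that overlapped each time.

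**Figure D5:**
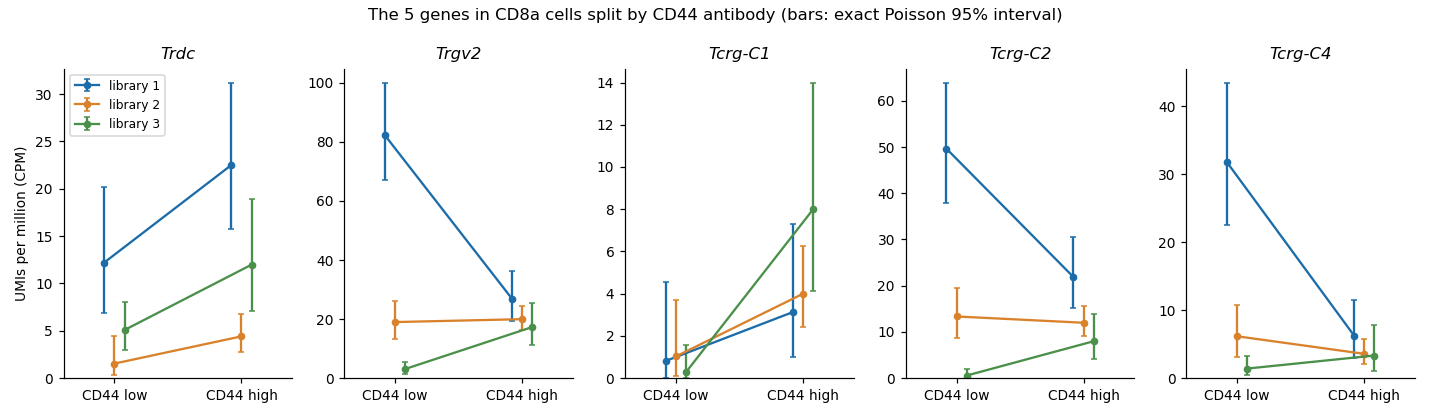
Levels of the 5 genes in CPM in CD44 low and CD44 high cells of the CD8a gate, with 1 line per library and exact Poisson 95% intervals. Each gene has its own linear axis. Trgv2 was at 82.2 CPM in CD44 low and 26.9 CPM in CD44 high cells of library 1, and at 3.11 and 17.3 CPM in library 3.

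The other gamma and delta segments were sparse. The table holds 26 rows of gamma and delta genes, of which 10 had at least 20 UMIs in kept cells, 8 had 1 to 19 and 8 had none. Beyond the 5 genes, those with at least 20 were Trdv4 (190 UMIs), Tcrg-V1 (101), Tcrg-V4 (46), Trdv2-2 (44) and Trdv1 (37). Trdv4 was also found in NK cells, where 84 of its UMIs lay in 65 cells, at 83.9, 94.8 and 70.8 CPM. Unlike Trdc it was higher there than in CD3+ double-negative cells (79.1 against 23.95 CPM pooled), and it was present in 9 of 59 NK cells with a Trdc UMI and 56 of 247 without. Of 74 kept cells with a Tcrg-V1 UMI, 47 (63.5%) held Tcrg-C4, 38 (51.4%) Tcrg-C2 and 21 (28.4%) Tcrg-C1. Of 370 cells with Trgv2, 211 (57.0%) held Tcrg-C2, 136 (36.8%) Tcrg-C4 and 66 (17.8%) Tcrg-C1, and 81 (21.9%) held Trdc. The V segments thus differed in the constant genes found beside them. The stretches shared by Tcrg-C1 and Tcrg-C2 bear on the counts of those genes, whereas Tcrg-C4 shared no stretch of 90 bases with them.

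Across the 6 gates and 3 libraries, 18 points that share libraries and gates, the genes differed in which others they were most like. Trgv2 and Tcrg-C2 were most alike (Pearson r = 0.99 of log2(CPM + 1)), and by this measure Tcrg-C1 came next to both, followed by Cxcr6 (0.85 with each). By Spearman's rho Tcrg-C2 was again first for Trgv2 (0.95), whereas Tcrg-C1 ranked 53 for Trgv2 and 59 for Tcrg-C2 and Cxcr6 ranked 24 and 23. Trdc was most like Tcrg-C4 (0.90), Ppp1r12a (0.90), Tcrg-V1 (0.88) and the NK receptor genes Klrc2 (0.88) and Klrc1 (0.87). Tcrg-C4 was most like Tcrg-V1 (0.94), Ppp1r12a (0.91), Cd160 (0.90), Trdc (0.90) and Cysltr2 (0.89). For Tcrg-C1 the list after Trgv2 and Tcrg-C2 was Btg3 (0.84), Atp8a2 (0.83) and Sptssa (0.79). These are ranks among 7886 genes of at least 20 CPM in some gate and carry no p-value.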

How the data were processed

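The deposited counts of the authors are whole UMIs per feature and barcode in 1 matrix of genes and 34 antibodies, made with a 3′ kit and not normalized as far as the values show. Cell Ranger 5.0.1 is named in the file header, while Seurat and mm10 are named in the submitters' processing notes. The aggregation step of Cell Ranger joined the libraries, and the sources used here do not give its subsampling setting. Suffixes without a stated group served as library names.

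The members, gates and gene lists were chosen with earlier results of these data known. For each antibody and library, ln(count + 1) was fitted with 2 Gaussian components and cells with a posterior above 0.5 were positive, and the B cell antibodies used had Ashman's D above 2 in every library. CD44, split the same way within the CD8a gate, had D of 1.94, 3.07 and 3.35. Kept cells followed the limits the study states. UMIs were summed per gate and library and given as CPM. Genes were called among those of at least 10 CPM in either group, pooled, leaving out genes that define the groups. Named genes are the members, other receptor genes with at least 20 UMIs, the 5 genes most like each member, fixed lists of interleukin 17 type, interferon type and lineage genes, and the genes called between the Trdc and Trac groups. Doublets were limited by the 5000 gene limit and by the antibody gates only. The call was also run on simulated Poisson counts, the model its intervals assume, with no spread between cells and no difference in rates between libraries. That run cannot show how the call behaves where such spread is present. Some antibodies and genes of the lists are not reported here by name. Python 3.11.15, numpy 2.4.6, scipy 1.17.1, pandas 2.3.3, scikit-learn 1.9.0 and matplotlib 3.10.9 were used.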

Additional observations from a re-analysis of the deposited data

How the results depend on the processing

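Thinning to 1000 UMIs reversed the order of some Trac shares, such as those with and without Trgv2, Tcrg-C1 and Tcrg-C2 in CD3+ double-negative cells. The order of the shares with and without Trdc held there. Of the main results, 117 alternatives differed by less than the counting error, or for counts by less than 1.5 times, and 45 moved by more. Gates set from Cd4, Cd8a and Cd8b1 RNA in place of antibodies lowered the levels in CD3+ double-negative cells (pooled over libraries) from 232 to 74.6 CPM for Trdc, 156 to 71.5 for Trgv2, 65.3 to 24.8 for Tcrg-C1, 92.8 to 41.3 for Tcrg-C2 and 83.8 to 40.2 for Tcrg-C4, and raised Trgv2 and Tcrg-C2 in CD8a cells from 21.5 to 26.7 and from 13.2 to 17.0. A minimum of 1 CD3 UMI gave 166, 109, 45.1, 63.9 and 57.8 CPM for the 5 genes in that order, a minimum of 3 gave 260.4 for Trdc, and a posterior of 0.9 gave 198 for Trdc. The mean of per-cell CPM gave 184 for Trgv2 and 84.5 for Tcrg-C1 in CD3+ double-negative cells, and 31.7 for Trgv2 and 19.5 for Tcrg-C2 in CD8a cells. Thinning to 1000 UMIs lowered the Trac shares to 2.08% with Trdc, 29.7% without Trdc and 39.0% of Trgv2+ CD8a cells. It also left fewer cells positive for the member, 48 in place of 77 with Trdc and 41 in place of 139 Trgv2+ CD8a cells. The cause of these moves and of the others was not tested.

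The count of genes called depended on the fold and level required. A fold of 3 gave 53 higher and 27 lower for CD3+ double-negative against CD4 cells, 52 and 5 against CD8a cells, and 41 and 89 for CD8a against CD4 cells, and Trgv2 and Tcrg-C2 lost their calls against CD4 cells and Tcrg-C2 against CD8a cells. A fold of 1.5 gave 18 lower against CD8a cells, 114 and 292 for CD8a against CD4, 160 lower in NK than CD8a cells and 1 lower in Trdc+ Trac- cells. A minimum of 50 CPM gave 51 higher against CD4 and 41 against CD8a cells, and 30 higher and 53 lower for CD8a against CD4.

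Leaving out 1 library at a time gave 135 to 279 CPM for Trdc, 116 to 174 for Trgv2, 59.5 to 72.1 for Tcrg-C1, 69.8 to 102 for Tcrg-C2 and 66.3 to 91.4 for Tcrg-C4 in CD3+ double-negative cells, with the lowest Trdc value without library 3. Trdc in NK cells ranged from 61.6 to 81.5, and Trgv2 and Tcrg-C2 in CD8a cells from 14.4 to 29.0 and from 8.26 to 18.8, lowest without library 1. The Trac share ranged from 16.7 to 21.7% with Trdc, from 68.9 to 71.8% without it and from 84.9 to 86.1% of Trgv2+ CD8a cells. No paired analysis was possible because each group is 1 pooled library and the suffixes carry no group.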
